A study of Saccharomyces cerevisiae with 7 samples.

Results

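The 32 genes described here encode proteins that build ribosomes in baker's yeast without being part of the finished particle. They were chosen by name, from a list of known ribosome biogenesis factors, and each was read from probe sets that the array annotation ties to that gene alone. NOP56 was found under its older name SIK1. All 32 were among the 5656 genes measured, and all 32 were among the 5220 genes that lay above the intensity floor of 12 on at least 2 arrays and were tested.

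A ribosome starts in the nucleolus, where RNA polymerase I copies the ribosomal DNA into a long precursor RNA. Small nucleolar ribonucleoproteins (snoRNPs) modify that precursor, with box C/D particles guiding methylation and box H/ACA particles guiding pseudouridine formation. The small subunit processome folds and cuts the precursor, separate sets of factors mature the large and the small subunit, and RNA helicases remodel the RNA on the way. In yeast the genes for these factors are known to be transcribed together, to follow growth rate, and to answer to nutrients through the TORC1 and protein kinase A pathways, the activator Sfp1 and the repressors Dot6, Tod6 and Stb3.

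All groups used CEN.PK113-7D, a laboratory yeast strain with a single set of chromosomes, and the labels name no introduced allele. A chemostat holds the growth rate constant by the rate at which a limiting nutrient is fed, and here every culture was aerobic and limited by glucose. The feed held 7.5 g/l glucose at pH 3.5 and 30 °C, and the dilution rate was 0.1 per h in all 3 groups. The 3 control arrays had no further sugar, 2 arrays had 10 g/l galacturonic acid added to the culture, and the other 2 had 0.23 g/l galactose. Galacturonic acid is the main sugar acid of pectin, and the series addresses how it inhibits this yeast. The title, description and treatment of the galactose samples name galactose, while their source name gives galacturonic acid at the same dose, so the galactose label is not free of doubt. Array numbers within a group only name an array, and p-values measure the spread between these arrays, whose cultures are told apart by a code alone. Whole cultures were extracted, so a change in RNA per cell and a change in the share of cells expressing a gene cannot be told apart.

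The arrays were of unequal quality. The ratio of 3' to 5' control signal for ACT1, the actin gene, lay between 1.07 and 1.34 in the control and galacturonic acid groups but reached 19.8 and 306 on galactose arrays 1 and 2. For SPT15, the TATA-binding protein gene, it lay between 1.66 and 2.75 in those groups and at 2.76 and 124 on galactose arrays 1 and 2. The 5' intensities of both genes on galactose array 2 lay below the floor, so the sizes of those ratios are uncertain. The galactose arrays also differed most from each other. Over all genes tested the median SD on the log2 scale was 0.30 within the control group, 0.17 within the galacturonic acid group and 0.52 within the galactose group. Over the 32 ribosome biogenesis genes the same medians were 0.55, 0.15 and 1.28. The biogenesis genes were therefore spread more widely than the typical gene between control arrays and between galactose arrays, and about equally between galacturonic acid arrays.

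**Figure D1:**
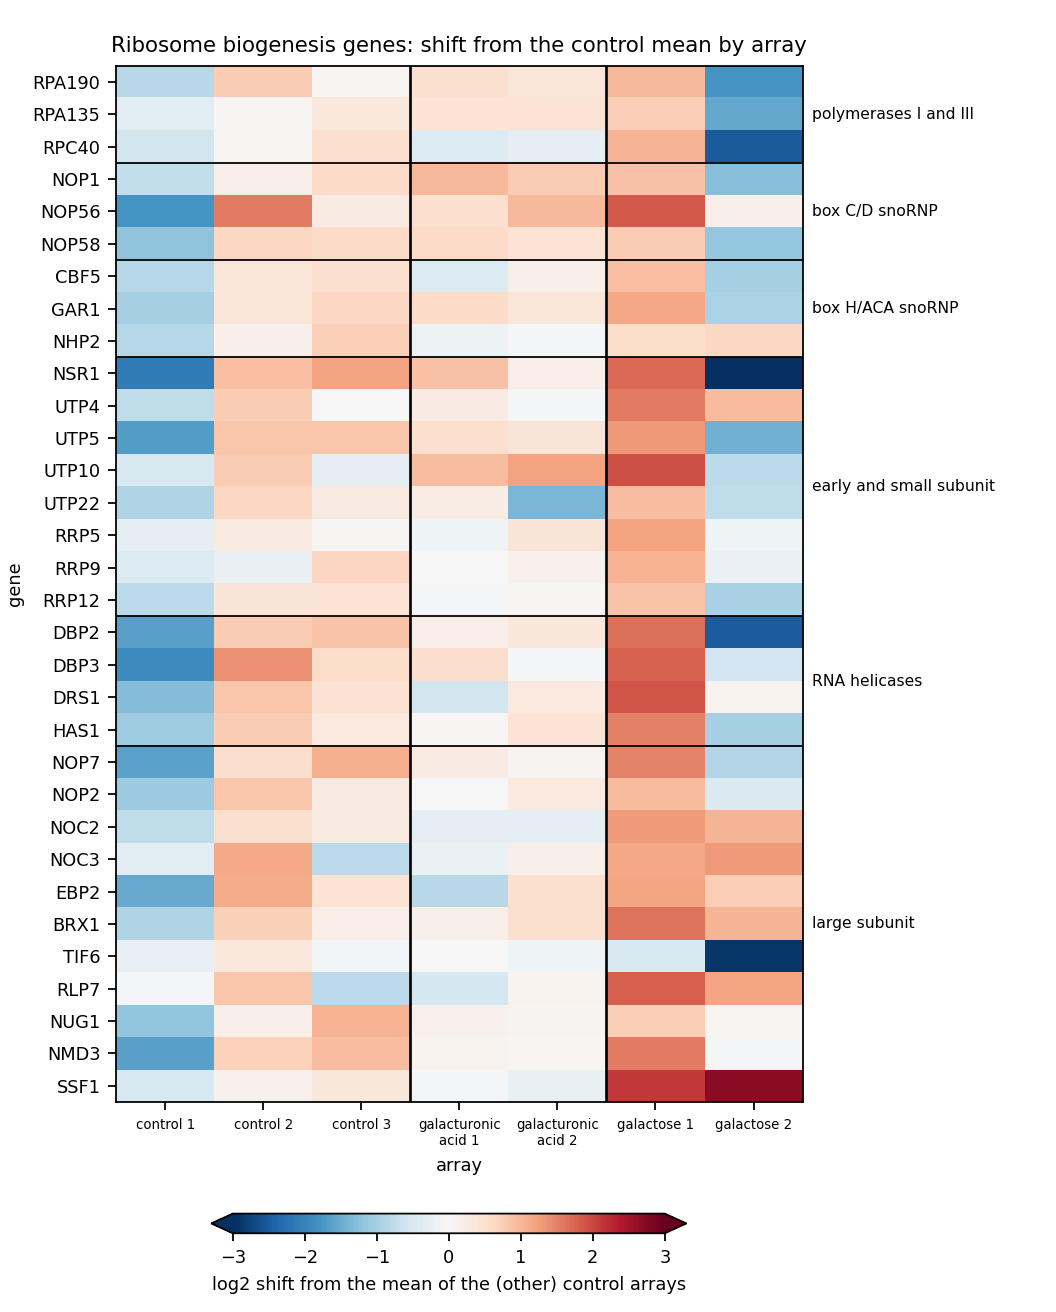
Log2 intensity of each of the 32 genes on each of the 7 arrays minus the mean of the control arrays (for a control array, of the other 2 controls), ordered by role, with colour giving the difference. Control array 1 is low and galactose array 1 is high in nearly every row, while galactose array 2 is low in most roles and high in several large subunit rows.

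Galacturonic acid was set against control to ask whether the sugar acid changed this gene programme at a fixed growth rate. No biogenesis gene passed the threshold, an adjusted p of 0.05 in limma after Benjamini-Hochberg adjustment over all 5220 genes. The count was 0 of 32 higher and 0 of 32 lower, beside a background of 0.881% of all genes higher and 1.44% lower. At an unadjusted p under 0.05 the count was also 0 in each direction, against 651 of all genes, and the smallest adjusted p of a biogenesis gene was 0.600. The log2 differences ran from -0.57 to 1.07 with a median of 0.12, beside -0.01 over all genes. There were 20 genes above 0 and 12 below.

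By role, the 3 box C/D proteins had the highest median difference, 0.73 on the log2 scale. NOP1 encodes the methyltransferase of these particles, known in human cells as fibrillarin. Its intensity was 173, 265 and 317 on the control arrays and 482 and 414 on the galacturonic acid arrays, so the groups did not overlap. The log2 difference was 0.87 ± 0.59 (SE), with an adjusted p of 0.612. NOP58, a core protein of the same particles, read 577, 1336 and 1312 in control and 1488 and 1322 with galacturonic acid. These groups overlapped, and the log2 difference was 0.48 ± 0.59. NOP56, the partner of Nop58, read 42.0, 197 and 108 in control and 137 and 188 with galacturonic acid. Both treated values lay inside the control range.

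The box H/ACA proteins had a median log2 difference of -0.11. GAR1, a core protein of these particles, read 179, 336 and 376 in control and 419.7 and 361 with galacturonic acid. NHP2, which binds the guide RNA of the same particles, read 446, 710.3 and 924 in control and 598 and 637 with galacturonic acid. CBF5, the pseudouridine synthase itself, had a log2 difference of -0.12 ± 0.56. In all 3 genes the galacturonic acid arrays overlapped the controls.

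Polymerase I subunits were measured by 3 genes with a median log2 difference of 0.41. RPA190, the largest subunit of the enzyme, read 207, 431 and 314 in control and 422 and 392 with galacturonic acid. RPA135, the second largest, read 187, 222 and 252 in control and 293 and 290.0 with galacturonic acid, so its groups did not overlap. Its log2 difference was 0.41 ± 0.58, with an adjusted p of 0.856. RPC40, a subunit shared with RNA polymerase III, read 104, 138 and 170.4 in control and 102 and 111 with galacturonic acid. Its treated arrays lay at the low end of the control range, on the other side of 0 from the 2 larger subunits.

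The 8 early and small subunit factors had a median log2 difference of 0.12 and held both ends of the whole set. UTP10, a processome protein also tied to transcription of the ribosomal DNA, read 75.9, 135 and 83.0 in control and 180.2 and 219 with galacturonic acid. Its groups did not overlap, and its mean intensity was 98.0 ± 32.3 (SD, n = 3) in control against 199.8 ± 27.6 (SD, n = 2). The log2 difference of 1.07 ± 0.70 was the highest of the 32, with an adjusted p of 0.600. At the other end stood UTP22, another processome protein, at -0.57 ± 0.64. Its galacturonic acid arrays read 138 and 45.3 against 76.8, 157 and 133 in control, so a single array gave the low mean in the probe set used. Other probe sets of this gene are given below.

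RRP12, a factor for export of both subunits, read 178, 306 and 312 in control and 244 and 265 with galacturonic acid. NSR1, a nucleolin-like protein of early processing, read 76.2, 307 and 354 in control and 376 and 231 with galacturonic acid. UTP4, a processome protein of the same subcomplex as Utp10, read 11.6, 24.2 and 17.0 in control and 20.3 and 16.6 with galacturonic acid. The remaining early factors overlapped the controls too, with log2 differences of 0.45 for UTP5, 0.13 for RRP5 and 0.06 for RRP9.

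Among the 11 large subunit factors the median log2 difference was -0.01, with a range of -0.28 to 0.32. TIF6, which keeps immature large subunits from joining small ones, read 672, 871 and 724 in control and 747 and 682 with galacturonic acid. NOP2, a methyltransferase of the large subunit rRNA, read 154, 372 and 286 in control and 257 and 309 with galacturonic acid. NOC2, a partner of Noc3 in large subunit assembly, had the smallest p of this role and read 17.1, 30.5 and 27.8 in control and 20.4 and 19.9 with galacturonic acid. The others included NOP7, needed for maturation of the large subunit RNA, at a log2 difference of 0.17, NUG1, a nucleolar GTPase, at 0.10, and NMD3, the export adaptor of the large subunit, at 0.08. No large subunit gene had a galacturonic acid mean outside the range of the control arrays. The 4 RNA helicases had a median of 0.23. DBP2 read 95.3, 286 and 298 in control and 229.7 and 252 with galacturonic acid, and DBP3 read 42.9, 197 and 134 in control and 150.0 and 100.3. HAS1, which acts on both subunits, read 50.4, 117 and 94.8 in control and 84.5 and 109, and DRS1, a large subunit helicase, had a log2 difference of -0.13.

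Of the 32 genes, 3 had galacturonic acid arrays that all lay above all controls, NOP1, UTP10 and RPA135, beside 20.0% of all genes tested. None had them all below, beside 21.1% of all genes. The galacturonic acid mean lay between the lowest and the highest control array for 27 of 32 genes, against 43.8% of all genes. The exceptions were NOP1, NOP58, UTP10, GAR1 and RPA135, all above. The arrays of the galacturonic acid group lay within 2-fold of each other for 30 of 32 genes, near the 96.8% of all genes. The exceptions were UTP22 and EBP2.

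The low end of these control ranges was mostly set by a single array. Control array 1 lay below the mean of the other 2 control arrays for 32 of 32 biogenesis genes, against 59.4% of all genes tested. It was the lowest control for 30 of 32, against 46.4% of all genes, the exceptions being NOC3 and RLP7. Its log2 intensity minus the mean of the other 2 controls had a median of -0.89 over the 32 genes, with single genes from -2.11 to -0.07. Over all genes the median shift of the same array was -0.12, and over the 81 ribosomal protein genes it was -0.22. Those 81 genes, called ribosomal protein genes throughout, were picked by a pattern in their names. They include RPP1, a subunit of RNase P that is not part of the ribosome. The gap was widest for NSR1, at 76.2 against 307 and 354, followed by DBP3, at 42.9 against 197 and 134. The 4 helicases had a median shift of -1.46 and the polymerase I genes one of -0.56.

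Factors outside the 32 had the same low array. Among 54 other small subunit factors the median shift of control array 1 was -0.75, and among 51 other large subunit factors it was -0.84. The 3' to 5' ratio on this array was 1.23 for ACT1, against 1.07 and 1.19 on the other controls, and 2.75 for SPT15, against 1.71 and 1.66. Its part in each comparison can be given directly. Both galacturonic acid arrays exceeded control array 1 for 29 of 32 biogenesis genes, against 44.6% of all genes. Without that array the median log2 difference between galacturonic acid and control was -0.19, with 9 genes above 0 and 23 below. Without control array 2 or 3 it was 0.35 or 0.30. The side of 0 on which most of these genes lay thus rested on 1 control array, while the count past the threshold was 0 with and without it.

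**Figure D2:**
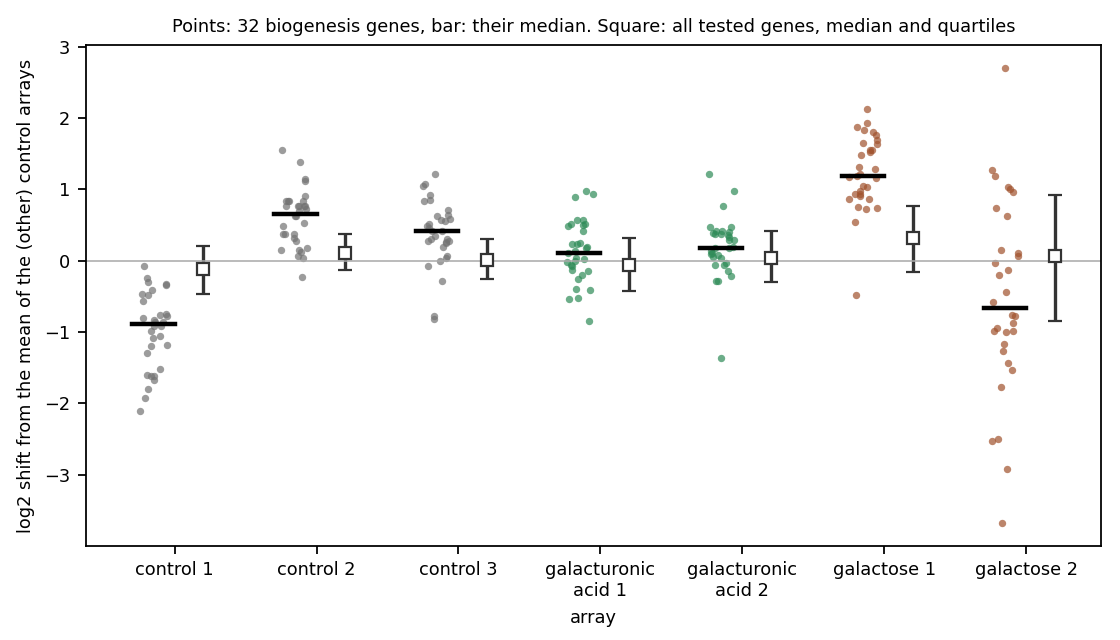
Log2 difference from the control mean (for a control array, from the other 2 controls) on each of the 7 arrays, with a point for each of the 32 biogenesis genes and a bar at their median. Squares with whiskers are the median and quartiles of all genes tested. The biogenesis genes sit at a median of -0.89 on control array 1, 1.19 on galactose array 1 and -0.67 on galactose array 2, while the medians of all genes stay between -0.12 and 0.32.

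Galactose was set against control to compare the acid with its neutral relative. SSF1, a nucleolar factor of large subunit assembly, rose and was the only 1 of 32 biogenesis genes to pass the threshold, beside 4.75% of all genes higher. None of 32 passed in the lower direction, beside 4.31% of all genes. The share of biogenesis genes called was thus near the background. At an unadjusted p under 0.05 the counts were 6 higher and 1 lower, against 1813 of all genes in either direction. The median log2 difference of the 32 was 0.35 beside 0.22 over all genes, with 21 genes above 0, 11 below and a range of -1.70 to 2.41. Both medians depended on the scaling, and with arrays scaled to their 75th percentile they were 0.17 and 0.04. Without control array 1 the median of the 32 was -0.07.

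SSF1 read 36.4, 47.7 and 53.2 in control, 43.5 and 38.8 with galacturonic acid, and 197 and 294 with galactose. Both galactose arrays exceeded every other array. The mean rose from 45.8 ± 8.57 (SD, n = 3) to 246 ± 68.7 (SD, n = 2), a log2 difference of 2.41 ± 0.35 (SE) or 5.32-fold, with an adjusted p of 0.0131. The call was kept without either galactose array, at adjusted p of 0.00312 and 0.0367. It was lost when any single control or galacturonic acid array was left out, at adjusted p between 0.0575 and 0.0751, with log2 differences of 2.26 to 2.53. SSF1 has a close copy, SSF2, and a probe set may pick up both, so its value is uncertain. SSF2 read 21.6, 50.7 and 51.4 in control and 67.6 and 24.8 with galactose, and its log2 difference of 0.10 had an adjusted p of 0.920.

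For 8 of 32 genes both galactose arrays lay above all controls, beside 31.4% of all genes. They were SSF1, NOC2, NOC3, RLP7, BRX1, EBP2, UTP4 and NHP2, and 6 of them belong to large subunit assembly. The longer lists did not have this lean to the large subunit. There both galactose arrays lay above all controls for 25 of 51 other large and 27 of 54 other small subunit factors. By-array values of NOC3, RLP7, BRX1 and EBP2 were chosen for mention after they were seen. RLP7, a factor that binds the precursor of the large subunit RNA, read 67.4, 103 and 48.6 in control and 242 and 159 with galactose. BRX1, which is needed early in large subunit assembly, read 90.9, 193 and 152 in control and 429 and 279.5 with galactose. NOC2 read 59.3 and 49.8 with galactose, all above its controls. Their log2 differences of 1.49 ± 0.43, 1.32 ± 0.40 and 1.16 ± 0.32 had adjusted p of 0.0604, 0.0698 and 0.0574 and missed the threshold.

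NOC3 read 25.0, 49.3 and 19.9 in control and 65.2 and 70.1 with galactose, and EBP2 read 35.1, 118 and 85.5 in control and 159.8 and 118, the lower of which equals the highest control after rounding. UTP4 read 49.7 and 33.1 with galactose, with a log2 difference of 1.25 ± 0.35 and an adjusted p of 0.0572. NHP2 read 964 and 1017, with a log2 difference of 0.58 ± 0.35. In these genes the galactose arrays lay on the same side, at the top of the 7 arrays.

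TIF6 went the other way. It read 672, 871 and 724 in control and 539 and 99.4 with galactose, and was the only 1 of 32 genes with both galactose arrays below all controls, beside 16.4% of all genes. Its log2 difference of -1.70 ± 0.61 had an adjusted p of 0.0985. Most of that difference came from galactose array 2, as the difference was -0.48 without it and -2.92 without galactose array 1.

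**Figure D3:**
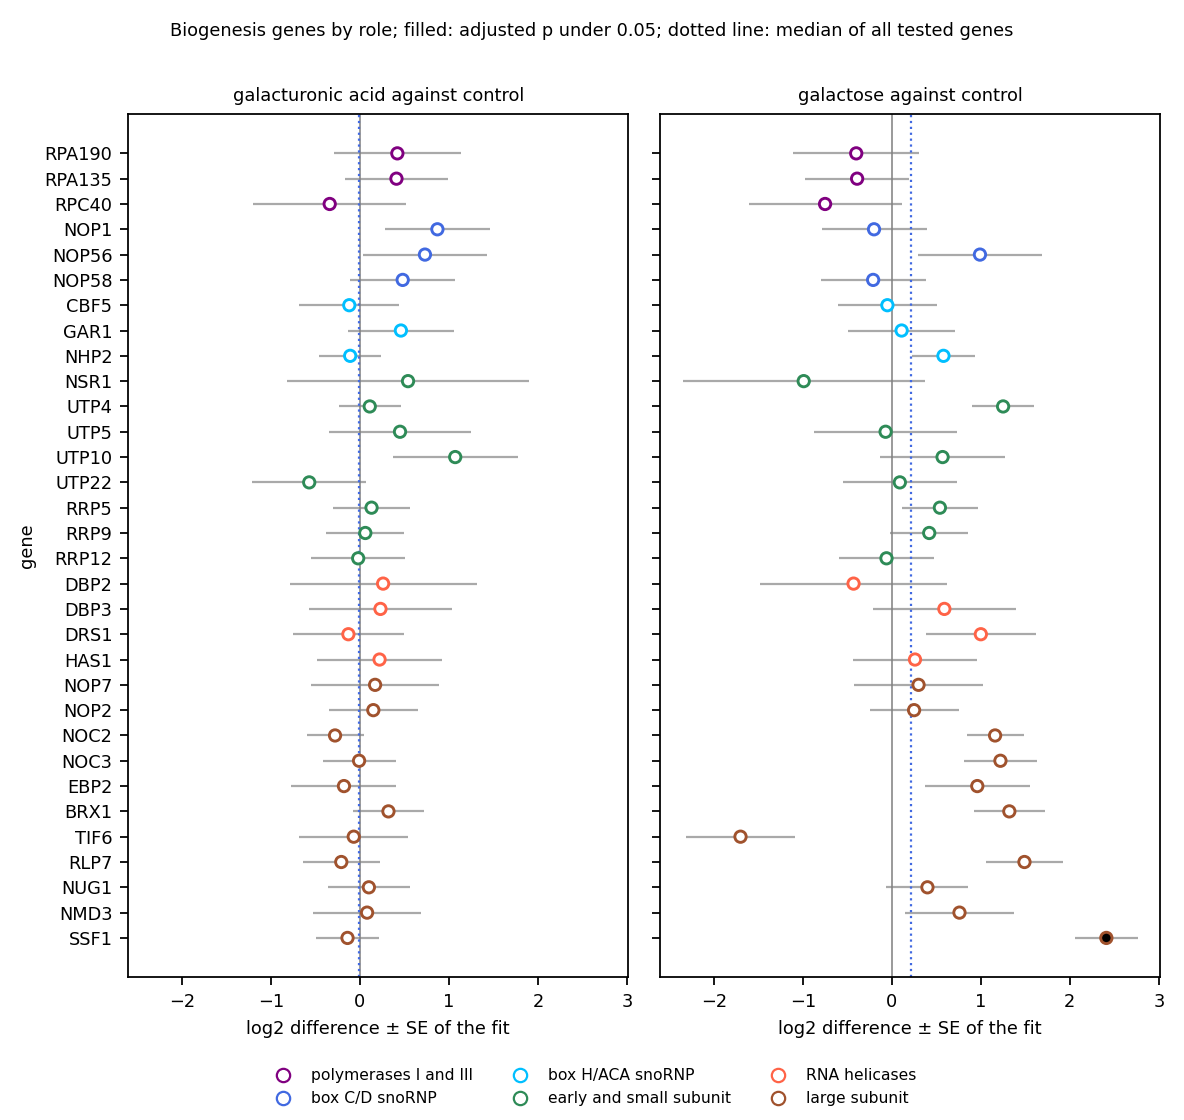
Log2 difference of each of the 32 genes with its standard error against control, for galacturonic acid and for galactose, ordered and coloured by role, with filled markers for genes past the threshold and a dotted line at the median of all genes. All markers are open for galacturonic acid, and SSF1 alone is filled for galactose.

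For the majority of the set the galactose arrays disagreed with each other. Galactose array 1 lay above the control mean in 31 of 32 genes, with a median shift of 1.19 on the log2 scale against 0.32 over all genes. It was the highest of the 7 arrays for 27 of 32 genes, against 24.7% of all genes. Galactose array 2 lay above the control mean in 11 of 32, with a median shift of -0.67 against 0.06 over all genes. For 20 of 32 genes, 62.5%, the arrays of this group lay on opposite sides of the control mean, against 31.7% of all genes. Galactose array 2 was more than 2-fold below galactose array 1 for 23 of 32 genes, against 24.8% of all genes.

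The size of the gap differed by role. All 3 polymerase I genes were the highest of 7 on galactose array 1 and the lowest on galactose array 2, against 24.7% and 30.5% of all genes. The longer list of 22 other polymerase I and III genes did not have this. Of those, 72.7% were highest on array 1 but 13.6% lowest on array 2, where their median shift was 0.33. RPA190 read 600.4 and 88.9, RPA135 read 366 and 75.7, and RPC40 read 275 and 23.3, so the group means hid a gap of more than 4-fold in each. The box C/D gene NOP1 read 445 and 101, NOP58 read 1682 and 446, and NOP56 read 344 and 107. GAR1 read 631 and 146, while its partner NHP2 had its galactose arrays close together. Among the early factors NSR1 read 655 and 15.8, the widest gap of all, UTP10 read 362 and 55.0, and RRP12 read 465 and 130.3.

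All 4 helicases had the same pattern. DBP2 read 629 and 35.5, DBP3 read 354 and 69.8, HAS1 read 237 and 41.3, and DRS1 read 147 and 43.1. The large subunit factors stood apart from the other roles, with a median shift of 1.28 on galactose array 1 and 0.74 on galactose array 2. Of these 11 genes 4 differed by more than 2-fold between the galactose arrays, and NOP2, at 485 and 187, NOP7, at 70.6 and 13.8, NMD3, at 500.2 and 166, and TIF6 were those. This split by role was seen in the data and was not tested, and the longer lists did not have it. Galactose array 2 was more than 2-fold below array 1 for 51.0% of 51 other large subunit factors and 48.1% of 54 other small subunit factors, with array 2 medians of 0.49 and 0.67.

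**Figure D4:**
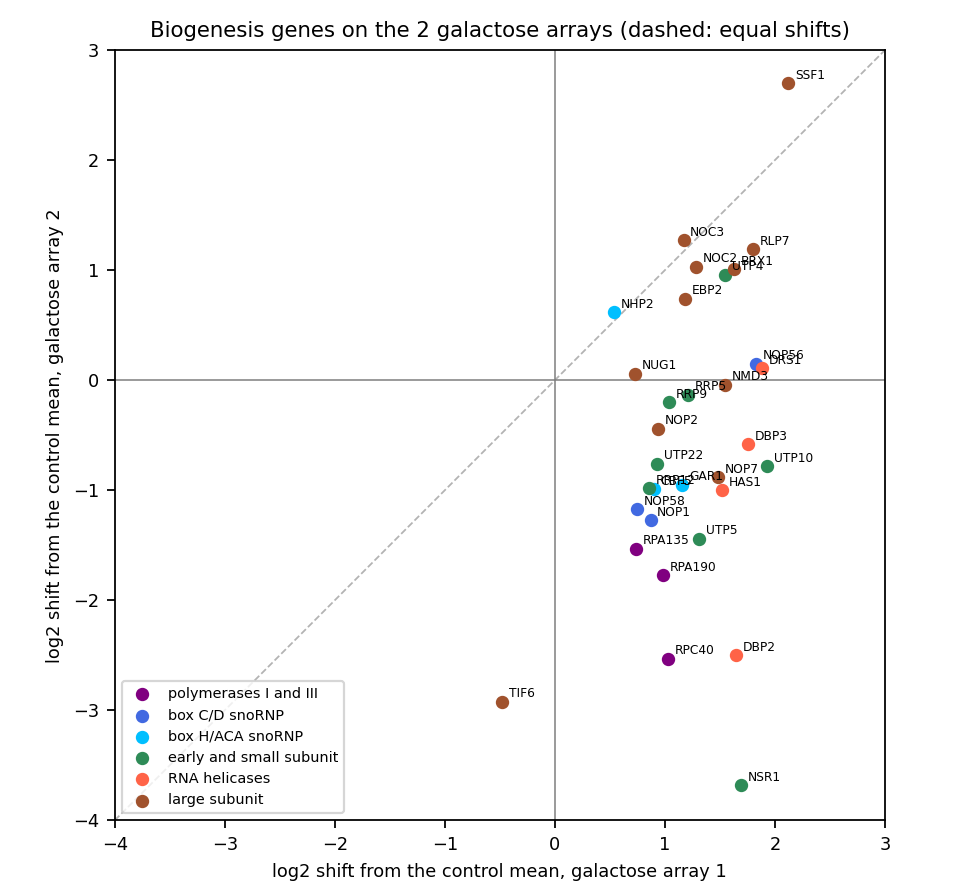
Log2 difference from the control mean on galactose array 2 against that on galactose array 1, with 1 point for each of the 32 genes coloured by role, and the line of equal values. Points below the line are lower on array 2, as for 29 of 32 genes, against 57.4% of all genes. SSF1, NOC3 and NHP2 lie above the line.

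Each galactose array gave a different median. Without galactose array 1 the median log2 difference over the 32 was -0.67, with 11 genes above 0 and 21 below. Without galactose array 2 the median was 1.19, with 31 genes above 0 and 1 below. In both cases the remaining galactose array was taken to vary like the other groups. Gene length, which includes introns where a gene such as DBP2 has them, was set beside the gap. Across the 32 genes, which share these arrays, Pearson's r between log2 gene length and the difference of array 2 from array 1 was -0.16, beside -0.14 over all genes. From the shortest to the longest of 5 length classes, the median shifts on array 2 were -0.17, -0.99, -0.44, 0.54 and -0.88, in classes of 4 to 11 genes, with no steady order. The part of the raised 3' to 5' ratios in these differences was not tested.

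Several genes had more than 1 probe set, and these sets did not all tell the same story. The 32 genes were read by 47 probe sets, and DBP2, NOP58, RPA190 and UTP22 had more than 1. For each gene the brightest set, by its mean level, was used, and the place of each set along its transcript is not given in the sources used here. For RPA190 the set used stood 0.98 above the control mean on galactose array 1 and -1.77 from it on array 2, on the log2 scale. A second set, with 91.5, 212 and 112 in control, read 40.0 and 4.80 with galactose, which is -1.69 and -3.43 from the control mean. Another read 56.1, 80.5 and 49.0 in control and lay below the floor on both galactose arrays. With galacturonic acid the same 3 sets differed from control by 0.42, 0.89 and 0.53, all above 0.

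UTP22 showed a like pattern. Its used set read 224 and 69.1 with galactose against 76.8, 157 and 133 in control, while another read 2.10 and 0.100 against 38.1, 54.8 and 58.1. With galacturonic acid the used set differed from control by -0.57 on the log2 scale. Other UTP22 sets, all dimmer, differed by -0.37, -0.51, -0.71 and -0.14, and the last set lay below the floor on every array. For NOP58 the sets split on galactose array 2 alone. The used set read 446 there, another read 90.1 against 244, 668 and 628 in control, and another read 728 against 269.8, 376 and 360.1. The values of RPA190, UTP22 and NOP58 on the galactose arrays therefore depended on the probe set, and the direction of their galactose difference is uncertain.

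**Figure D5:**
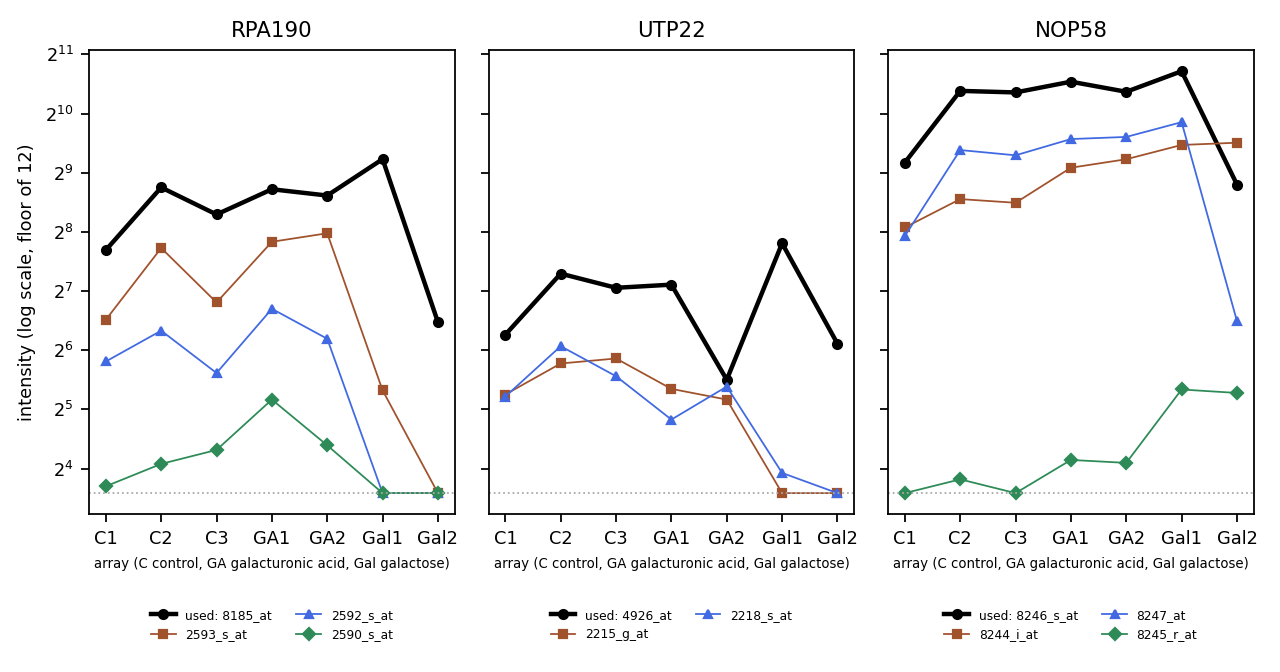
Intensity, floored at 12 and drawn on a log scale, of probe sets of RPA190, UTP22 and NOP58 on control (C), galacturonic acid (GA) and galactose (Gal) arrays. Only sets that lay at or below the floor on at most 2 arrays are drawn. Lines join values of 1 probe set, the black line is the set used, and the dotted line is the floor. Lines do not mark an order of the arrays. On the galactose arrays the sets of a gene part from each other, with the unused sets of RPA190 and UTP22 at or near the floor except 1 of RPA190 that reads 40.0 on galactose array 1.

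Galacturonic acid was then set against galactose. Both groups share glucose limitation and differ in the sugar added and in its dose, 10 g/l against 0.23 g/l. Their arrays also differ in the 3' to 5' ratios, so sugar, dose and array quality cannot be told apart here. This comparison uses the galactose arrays of the previous one, so the same genes appear with the opposite sign. The genes NOC2, RLP7 and SSF1, all of large subunit assembly, were lower with galacturonic acid, 3 of 32 beside 7.91% of all genes lower. None of 32 was higher past the threshold, beside 5.23% of all genes. At an unadjusted p under 0.05 the counts were 1 higher and 5 lower, against 1901 of all genes in either direction. The median log2 difference was -0.20 beside -0.24 over all genes, with 12 genes above 0 and 20 below. By role it was lowest for large subunit assembly and highest, at 0.81, for rRNA synthesis.

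SSF1 was 5.86-fold lower with galacturonic acid than with galactose, a log2 difference of -2.55 ± 0.38 with an adjusted p of 0.0106. RLP7, at 48.6 and 74.3 against 242 and 159, was 3.26-fold lower with an adjusted p of 0.0481. NOC2, at 20.4 and 19.9 against 59.3 and 49.8, was 2.70-fold lower with an adjusted p of 0.0378. RLP7 missed the threshold when any single array was left out, at adjusted p of 0.0748 to 0.313. NOC2 kept its call without control array 1 or galactose array 1, at adjusted p of 0.0428 and 0.0357, and lost it without any of the other 5 arrays. RLP7 also missed the threshold with quantile normalisation and with scaling to the 75th percentile, at adjusted p of 0.0535 and 0.0563, and NOC2 with a floor of 1, at 0.0508. SSF1 lost its call without either galacturonic acid array, at adjusted p of 0.132 and 0.109.

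The groups did not overlap for 8 genes lower with galacturonic acid, the same names as above control in galactose, beside 41.1% of all genes. TIF6 was the only gene of the 32 whose galacturonic acid arrays lay above both galactose arrays, beside 22.6% of all genes. Its log2 difference was 1.63 ± 0.67, with an adjusted p of 0.121. Without galactose array 1 the median log2 difference of the 32 genes turned from -0.20 to 0.70, with 23 genes above 0 and 9 below. Without galactose array 2 the median was -1.13, with 2 genes above 0 and 30 below.

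Other genes of the pathway were read from lists chosen by function, with earlier results of these data known. With galacturonic acid against control, none of 54 other small subunit factors, 51 other large subunit factors, 22 other polymerase I and III genes, 15 exosome and nuclease genes or 81 ribosomal protein genes passed the threshold. The nearest were SPB4, a large subunit helicase, and RPO31, the largest subunit of polymerase III. SPB4 read 45.4, 56.3 and 78.4 in control and 162 and 145 with galacturonic acid, a log2 difference of 1.39 ± 0.35 with an adjusted p of 0.106. RPO31 read 116, 78.3 and 74.5 in control and 199 and 198, with an adjusted p of 0.145. Neither overlapped its controls.

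Among 12 regulators of ribosome synthesis, 1 passed. CRF1, a corepressor that works with Fhl1 at ribosomal protein genes, fell with galacturonic acid from 79.8, 102 and 113 to 10.7 and 14.7, the former below the floor. The log2 difference was -2.87 ± 0.35 with an adjusted p of 0.00721, and CRF1 was also lower than with galactose, at -1.86 with an adjusted p of 0.0241. The call against control was lost without control array 2 or 3, at adjusted p of 0.0610 and 0.0555, or without either galacturonic acid array, at 0.209 and 0.110, while the difference stayed between -3.02 and -2.73. The call against galactose was lost without those same 4 arrays, at adjusted p of 0.0593, 0.0570, 0.228 and 0.133. The activators and repressors of the biogenesis genes did not pass. SFP1 read 87.3, 109 and 73.6 in control and 93.3 and 119 with galacturonic acid. DOT6 read 148, 57.8 and 101 against 135 and 66.5, TOD6 read 35.7, 78.7 and 87.3 against 78.0 and 83.8, and STB3 read 32.6, 30.6 and 26.3 against 35.4 and 33.7. FHL1 and IFH1, the activator pair at ribosomal protein genes, had log2 differences of -0.10 and 0.34.

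With galactose against control, 10 of 51 other large subunit factors and 9 of 54 other small subunit factors rose and none fell, beside the same 4.75% and 4.31% of all genes. Among the former NOP53 read 11.1, 25.3 and 21.5 in control and 66.0 and 77.0 with galactose, a log2 difference of 1.93 with an adjusted p of 0.0248. On the log2 scale NOP16 rose by 1.62, DBP7 by 1.67 and SPB4 by 1.57. Among the latter ENP2 read 28.2, 74.8 and 82.8 in control and 257 and 238, a log2 difference of 2.15 with an adjusted p of 0.0373. RRP7 rose by 2.18, FCF1 by 1.49 and FAL1 by 1.25 on the same scale.

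Of 15 exosome and nuclease genes RRP43 and RRP46 rose, by 1.92 and 1.43 on the log2 scale. Of 22 polymerase I and III genes RPA14 and RRN5 fell and none rose. RPA14, a small polymerase I subunit, read 158, 128 and 219 in control and 46.8 and 11.8 with galactose, and RRN5, a factor that recruits the enzyme, read 124, 56.7 and 71.9 against 24.0 and 26.5. These counts changed when single arrays were left out, in fits chosen after the data were seen. A galacturonic acid array does not enter the difference between galactose and control. Without either of them the medians stayed at 0.99 for the other large subunit factors and 0.91 for the other small subunit factors. Both the 10 and the 9 became 0 when any single control or galacturonic acid array was left out, with list medians of 0.61 to 1.18 and 0.69 to 1.11. Without galactose array 1 the medians of the large and small subunit lists were 0.49 and 0.67. Without galactose array 2 both medians were higher than with all arrays. How many of all genes passed in these refits is not given here. A loss of calls across all genes therefore cannot be told from a loss in these lists. None of the 81 ribosomal protein genes passed in either direction, and their median log2 difference was 0.09, beside 0.99 for the other large subunit factors and 0.91 for the other small subunit factors.

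Galactose array 1 lay above the control mean in 50 of 51 other large subunit factors and 52 of 54 other small subunit factors, with quartiles of the shift at 1.22 and 1.70 and at 1.05 and 1.75. On galactose array 2 it was 32 of 51 and 33 of 54, with medians of 0.49 and 0.67. On that array the 32 genes described here were lower than these lists, at a median of -0.67, a difference that was not tested. The ribosomal proteins had medians of -0.11 and 0.29 on galactose arrays 1 and 2, below both lists of assembly factors on each array.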

How the data were processed

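Total RNA was hybridised to 7 one-colour Affymetrix yeast arrays. The values the authors deposited are linear intensity values for 9335 probe sets, never negative, whose trimmed mean is 150.1 on each array, as read from the values. GCOS 1.2 was used, per the submitters' processing notes, and the signal algorithm is not given in the sources used here. Genes were named from the 6504 probe sets with 1 annotated gene. The probe set with the highest mean was kept per gene, log2 was taken with values under 12 set to that floor, and genes above the floor on at least 2 arrays were tested.

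All 7 arrays entered one linear model of group means (limma 3.58.1, R 4.3.3; lmFit and trended eBayes; 4 residual degrees of freedom), which was tested on simulated data. The threshold was an adjusted p of 0.05. Differences are log2 with the standard error of the fit, and intensities are without the floor. The number of arrays limits precision. From 31.2% to 34.0% of values per array lay at the floor.

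The 32 genes and the lists were chosen with earlier results of these data known. By-array values are given for the 2 members of highest mean and the smallest p per comparison in each role, and for other lists for genes past the threshold, up to 4 per direction, or else the smallest p. Other genes were named after their values were seen. Alternatives were 2 scalings, floors, an offset, filters, probe set averaging, no trend, array weights, smaller fits, a replicate block, a stricter threshold and leaving out arrays. No sequences were printed because none were among the sources used here.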

Additional observations from a re-analysis of the deposited data

Results flagged for a closer look

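The arrays carry 10 control probe sets for ribosomal RNA, which the comparisons above do not use, and 6 of them lay at or below the floor on all 7 arrays. Whether such dim sets follow the amount of ribosomal RNA was not tested. A 25S rRNA set stood above the control level with galacturonic acid, at a mean of 93.6 (98.1 and 89.1) against 24.1, 10.6 and 10.2 in control and 6.90 and 1.40 with galactose. An 18S rRNA set was lower with galacturonic acid, at 27.1 ± 3.61 (SD, n = 2) against 77.4 ± 9.23 (SD, n = 3) in control, and was also low with galactose, at 22.9 ± 4.10 (SD, n = 2). The other readable sets did not follow either change with galacturonic acid. Their means were 33.8 in control and 33.5 with galacturonic acid for 18S rRNA, and 16.9 and 15.6 for 25S rRNA. With galactose these other sets were low too, as both galactose arrays lay below every control array in each. Of those galactose values, both for 25S rRNA and that of array 1 for 18S rRNA lay below the floor. None of these differences was tested.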

How the results depend on the processing

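No direction of a called gene was reversed, and no biogenesis gene passed in galacturonic acid against control under any setting run. Array weights turned the median of that comparison from 0.12 to -0.08. Leaving out control array 1 turned it to -0.19, and the range over single arrays left out was -0.19 to 0.35. For galactose against control the single gene higher became 2 with a floor of 50 (NOC3, SSF1), 3 with log2 of the value plus 16 (NOC2, RLP7, SSF1), and 0 with a filter at the median level, with array weights, with only the groups compared and at an adjusted p of 0.01. The filter left 25 of the 32 genes and removed SSF1. Leaving out single arrays gave 0 to 1 higher, 0 to 7 lower and medians of -0.67 to 1.19. For galacturonic acid against galactose the 3 genes lower became 2 with quantile normalisation and with scaling to the 75th percentile (RLP7 lost), 2 with a floor of 1 (NOC2 lost), 2 with a floor of 50 (NOC2 and RLP7 lost, NOC3 gained), 1 with no filter on low genes, 1 with array weights, and 0 with that filter, with only the groups compared, and at an adjusted p of 0.01, and 1 gene was higher with the mean of all probe sets (RPA190). Leaving out single arrays gave 0 to 9 higher, 0 to 2 lower and medians of -1.13 to 0.70. The cause of these changes was not tested beyond the genes or arrays that a setting removes. The galacturonic acid and galactose samples share a number in 1 label, but only 2 numbers, which are not shown to pair them. With that replicate block 0 of the 3 genes were called and the median stayed at -0.20, and same-numbered deviations correlated at 0.17 over genes. Dim genes such as NOC2 and UTP4 lay near the floor, and a floor of 50 reduced the NOC2 difference with galactose from 1.16 to 0.12.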
